A study of Bos taurus with 34 samples.

Results

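The lining of the ampulla, the wide upper part of the oviduct where fertilisation takes place, was compared with the lining of the upper uterine horn on the side opposite to ovulation (contralateral). The members are the 5 contralateral ampulla libraries and the 5 contralateral upper horn libraries, chosen by their labels, 10 of the 34 libraries of the series, and each heifer gave 1 library per site. The series profiled the lining of the oviduct and uterus by RNA sequencing to find maternal factors, or embryokines, that could reach the embryo. The animals were 5 adult nulliparous Holstein heifers, numbered 10872, 10882, 11033, 11070 and 11110, whose cycles had been synchronised with a 5-day protocol based on a progesterone-releasing insert. All were slaughtered on day 2 after ovulation, and no group carried a further treatment or allele. The same step on the ovulatory side (ipsilateral) had 5 ampulla and 4 upper horn libraries and served for comparison. The sources used here do not say how the lining was separated from the wall beneath it.

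The oviduct lining is a folded epithelium of ciliated and secretory cells on a thin layer of connective tissue, and its cilia and fluid move and bathe gametes and the early embryo. The endometrium of the uterine horn carries a surface epithelium and glands on a thick stroma of fibroblasts and vessels, which respond to ovarian steroids. Both regions arise from the Müllerian duct, along which HOX transcription factor genes of increasing number are expressed from the oviduct toward the vagina.

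Levels are given as CPM, the counts of a feature scaled to a library total adjusted with TMM factors. Values of a gene are given in the heifer order above. Log2 fold changes are ampulla minus upper horn, ± SE, from a fit of edgeR with heifer as a block. The SE was derived from the F test of that fit, as the estimate without a prior count over the square root of F. It is unreliable for genes at or near 0 counts. A feature, in most cases a single transcript, was called at a Benjamini-Hochberg adjusted p under 0.05. Features were counted by transcript without a correction for length, so levels are compared between libraries and not between genes. The features of FN1, PECAM1, MYH11 and HSPA5, which code for fibronectin, an endothelial surface protein, smooth muscle myosin and a chaperone used by every cell, held 0 counts in all 10 libraries. A level, and a value of 0, is therefore that of the listed feature and may understate its gene.

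Total counts ran from 11619486 to 26427580 over the 10 libraries. The first principal component of the 10 libraries, with 51.3% of the variance, placed the 5 ampulla libraries between 108.4 and 134.9 and the 5 upper horn libraries between -150.3 and -95.2. The second, with 20.4%, set the upper horn library of heifer 11033 at 178.8 and the ampulla library of heifer 11070 at 92.5, apart from the other 8, which lay at 0 or below. These libraries also held counts for the fewest of the tested features, 13537 and 13417, against 14604 to 17002 in the other 8. The upper horn library of heifer 10882 held 19.63% of its counts in RN18S1, a nuclear 18S ribosomal RNA, and 29.19% in LOC112444681, and the ampulla library of heifer 11110 held 11.07% and 13.52%. The part of library quality in the results was not tested, and the counts were computed with and without these libraries.

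**Figure D1:**
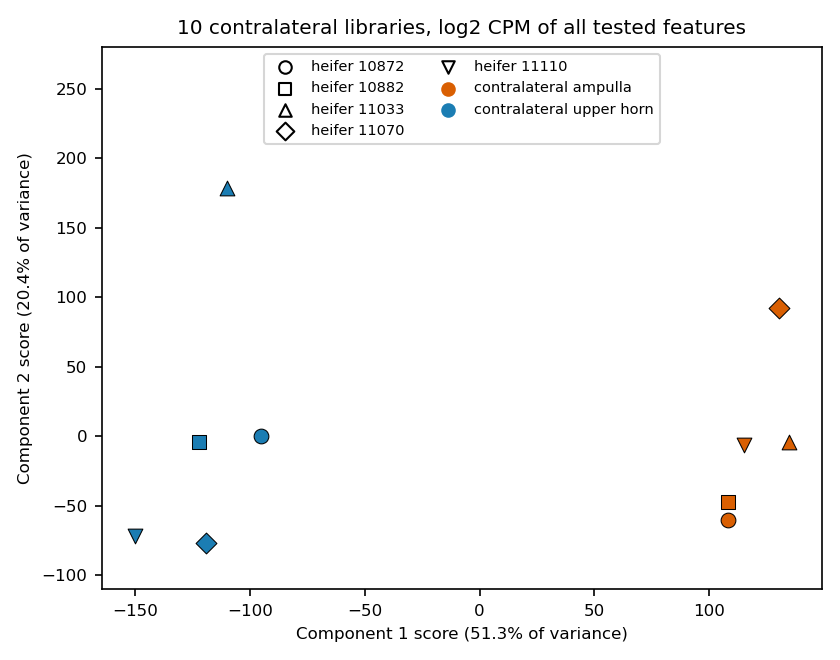
Principal components 1 and 2 of log2 CPM over all 17241 tested features, 1 point per library, with colour for site and shape for heifer. The sites lie on opposite sides of component 1, and the upper horn library of heifer 11033 stands apart on component 2 at 178.8.

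Of 17241 features tested, 7425 were called between the contralateral ampulla and upper horn (43.1%), 3264 higher in the ampulla (18.9%) and 4161 lower (24.1%). At least 2-fold changes made up 2523 of the higher calls and 3808 of the lower ones. The direction was the same in 5 of 5 heifers for 2399 of the higher and 2631 of the lower calls. The CPM of the groups did not overlap for 3432 features, 19.9% of all. The median log2 fold change of all features was -0.23, and -0.31 with DESeq2 size factors, so gene groups are read against a background slightly below 0. The counts of called members in every gene list are likewise read against the shares of all features, 18.9% higher and 24.1% lower. Fewer cells of a type in a sample and less RNA per cell cannot be told apart in these bulk libraries.

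At least 16-fold lower in the ampulla were 1146 called features, and 396 were at least 16-fold higher. Among the lower calls, 411 had 0 counts in all 5 ampulla libraries, and among the higher calls, 44 had 0 counts in all 5 upper horn libraries. Features were filtered on counts over all 7 groups, so one with 0 counts at a site could be tested through its level in other groups. The part of that filter in these numbers was not tested. With both libraries with the fewest features left out, 3141 features rose and 3976 fell. A fit on the 10 libraries alone tested 11606 features and called 1428 higher and 1485 lower. Of these calls 49.0% were higher, against 44.0% in the fit of all libraries. The fit of all libraries also called 2909 of them, all in the same direction. The fit of the 10 libraries alone tested 138 of the 141 named genes. In it CDC20B, CLDN4, ERBB3, UPK3B, HBQ1, EMX2, ID4, DLL1, RDH10, SLC2A1, MMP7, CCND2 and KLF2 lost their calls, with adjusted p between 0.0525 and 0.222.

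Among genes with a mean of at least 50 CPM in the higher group, the 12 named for the highest fold change toward the ampulla were KRT5, GJB7, PITX1, TMEM151A, KRT9, OSTN, CYP4B1, CRB2, CD109, GPX2, ENPP3 and NT5E, and the groups of each were far apart. KRT5, a basal cell keratin, was found at 1418, 1035, 762, 1246 and 1224 CPM in the ampulla and at 3.79, 1.59, 1.16, 0.996 and 0.186 CPM in the upper horn. Every ampulla library lay far above every upper horn library, with a log2 fold change of 9.48 ± 1.40 (n = 5 heifers, adjusted p = 5.62e-06). GJB7, which codes for a gap junction connexin, was at 80.0, 64.7, 204, 31.9 and 55.9 CPM in the ampulla and at 0.0468, 0.715, 0, 0.0738 and 0.0929 CPM in the upper horn (9.41 ± 1.28, adjusted p = 1.00e-06). PITX1, a homeodomain transcription factor, was at 216, 130.0, 139.8, 90.2 and 157 CPM in the ampulla and at 1.36, 0.159, 0.290, 0.184 and 0.139 CPM in the upper horn (8.59 ± 1.27, adjusted p = 5.22e-06). The upper horn value of heifer 10872 was the highest of its group for both KRT5 and PITX1.

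CD109, a cell surface protein that binds TGF beta, reached 11589, 7035, 9160.5, 3613 and 5426 CPM in the ampulla against 112, 61.4, 28.7, 59.6 and 51.7 CPM in the upper horn (6.88 ± 0.77, adjusted p = 4.08e-08). The oxidising enzyme CYP4B1 varied little between heifers within the ampulla, at 401, 395, 412, 345 and 425 CPM, and lay at 4.68, 1.59, 5.61, 5.24 and 0.975 CPM in the upper horn (6.93 ± 1.01, adjusted p = 4.56e-06). GPX2, a glutathione peroxidase of epithelia, was at 261, 415, 292, 387 and 494 CPM in the ampulla and 6.69, 1.43, 1.84, 4.35 and 3.53 CPM in the upper horn (6.75 ± 0.83, adjusted p = 2.56e-07). NT5E codes for the surface enzyme CD73, which makes adenosine from AMP, and ENPP3 for a surface enzyme that splits extracellular nucleotides. NT5E was at 1030.4, 592, 1113, 778 and 575 CPM in the ampulla and 16.4, 5.01, 5.90, 6.34 and 5.76 CPM in the upper horn (6.69 ± 0.92, adjusted p = 1.83e-06). ENPP3 was at 626, 376, 879, 96.7 and 507 CPM in the ampulla and 31.6, 6.52, 1.26, 1.40 and 1.21 CPM in the upper horn (6.72 ± 1.15, adjusted p = 3.80e-05). The lowest ampulla value of ENPP3, in heifer 11070, was still above the highest upper horn value, in heifer 10872.

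Osteocrin, a secreted peptide that binds the natriuretic clearance receptor and is encoded by OSTN, rose by 7.10 ± 1.04 (adjusted p = 2.95e-06), to 66.4 ± 47.5 CPM (mean ± SD) in the ampulla from 0.457 ± 0.520 CPM. CRB2, a polarity protein of epithelial cells, rose by 6.88 ± 1.03 (adjusted p = 6.12e-06), to 136 ± 85.3 CPM from 1.09 ± 0.918 CPM. KRT9, a keratin known from thick skin, rose by 7.98 ± 1.24 (adjusted p = 1.18e-05), to 1829 ± 269 CPM from 8.97 ± 8.78 CPM. TMEM151A, a membrane protein, rose by 8.14 ± 1.14 (adjusted p = 1.47e-06), to 51.8 ± 25.5 CPM from 0.192 ± 0.270 CPM. Keratins share sequence, so reads of KRT5, KRT9 and KRT14 could be divided between copies, since the labels do not state how shared reads were handled.

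**Figure D2:**
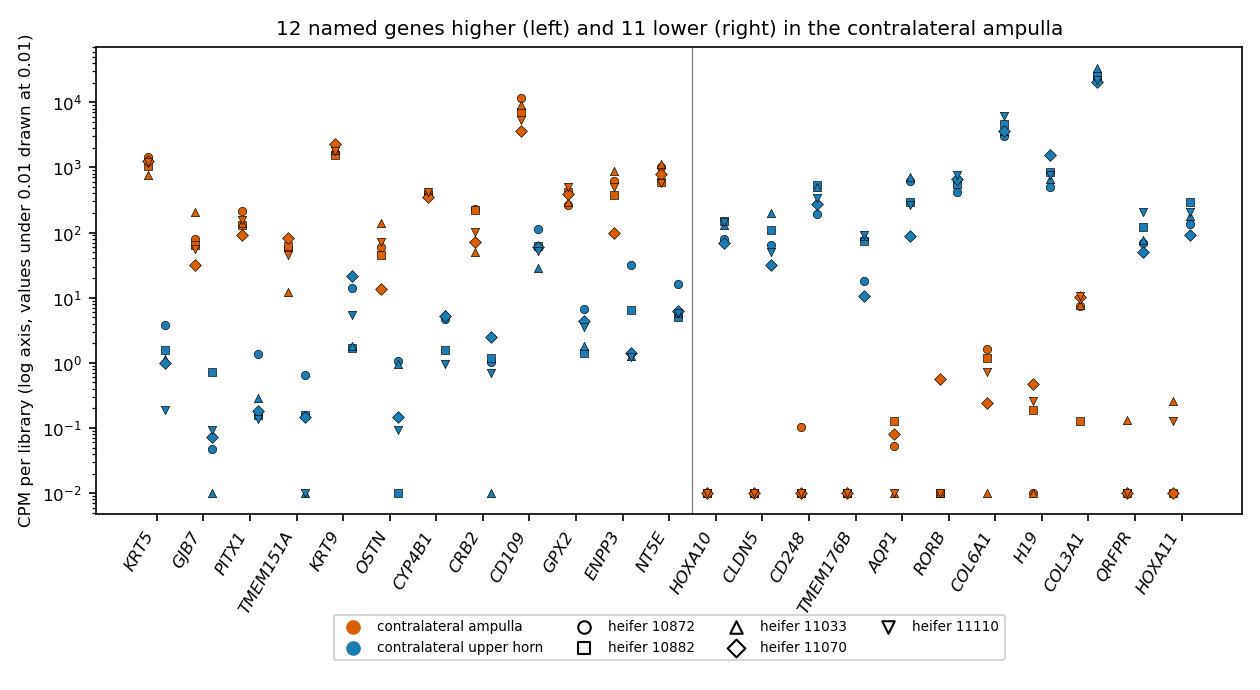
CPM of the 12 genes named for the highest and the 11 named for the lowest fold change among genes of at least 50 CPM, on a log axis with values under 0.01 drawn at 0.01, 1 point per library with colour for site and shape for heifer. The groups of each gene do not overlap, and HOXA10, CLDN5 and TMEM176B lie at 0 in all 5 ampulla libraries.

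With the same limit of 50 CPM, the 11 named for the lowest fold change were HOXA10, CLDN5, CD248, TMEM176B, AQP1, RORB, COL6A1, H19, COL3A1, QRFPR and HOXA11. Fitted fold changes of genes at or near 0 counts depend on the prior count. Bounds or ratios of CPM are given here for genes with at most 3 counts over the 5 ampulla libraries. RORB, AQP1, H19 and HOXA11 had few ampulla counts but more than that, so their fitted fold changes and SE are also uncertain. HOXA10, a homeobox gene known from uterine patterning, had 0 counts in the 5 ampulla libraries and 79.0, 150.01, 129, 68.4 and 145 CPM in the upper horn. Against a floor of 3 counts over the 5 ampulla libraries, it was at least 2773-fold lower in the ampulla (adjusted p = 3.47e-17). CLDN5, a tight junction protein of endothelial cells, likewise had 0 counts in the ampulla and 64.5, 108, 201, 31.6 and 49.5 CPM in the upper horn, at least 1888-fold lower (adjusted p = 7.29e-15). TMEM176B, a membrane protein, had 0 counts against 17.8, 73.7, 88.8, 10.4 and 93.1 CPM, at least 1265-fold lower (adjusted p = 2.94e-13).

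CD248, or endosialin, a surface protein of fibroblasts and pericytes, had 2 counts in the ampulla, both in heifer 10872, and 193, 541, 501, 272 and 335 CPM in the upper horn. The ratio of upper horn to ampulla CPM was 12915 (95% counting interval 3575 to 106650.0), which like the bounds covers counting error only. QRFPR, a neuropeptide receptor, had 2 counts in the ampulla and 69.9, 120.3, 77.8, 50.8 and 209 CPM in the upper horn, a ratio of 4074 (95% counting interval 1128 to 33650.0). All 5 upper horn libraries were above all 5 ampulla libraries for each of these genes.

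The other 6 genes had counts in at least 1 ampulla library. RORB, an orphan nuclear receptor, was at 0, 0, 0, 0.559 and 0 CPM in the ampulla and 422, 549, 682, 662 and 763 CPM in the upper horn (-12.69 ± 0.58, adjusted p = 1.29e-17). AQP1, a water channel of vessels, was at 0.0523, 0.127, 0, 0.0799 and 0 CPM in the ampulla and 622, 289.6, 721, 87.0 and 267 CPM in the upper horn (-12.71 ± 0.65, adjusted p = 1.52e-16). H19, an imprinted long noncoding RNA, was at 0, 0.190, 0, 0.479 and 0.259 CPM in the ampulla and 508, 839, 664, 1557 and 769 CPM in the upper horn (-12.28 ± 0.69, adjusted p = 4.01e-15). The remaining 3 were the collagen genes COL3A1 and COL6A1 and the homeobox gene HOXA11, given with their families.

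Most tested genes of cilia, oviduct secretory cells and general and basal epithelium were higher in the ampulla, while those of endometrial glands and epithelium were mixed. Of 24 tested genes of the motile cilium axoneme, the microtubule core that drives the beat, 20 rose, none fell and 4 were not called, against 18.9% of all features called higher, and the median log2 fold change was 2.59. The groups did not overlap in 14 of them, against 9.27% of all features with the ampulla above. TEKT1, a filament protein of ciliary microtubules, was at 521, 623, 744, 589 and 557 CPM in the ampulla and 45.5, 47.1, 37.2, 85.1 and 35.9 CPM in the upper horn (3.63 ± 0.35, adjusted p = 5.92e-10). STOML3, a stomatin family membrane protein, was at 36.4, 43.0, 55.5, 49.9 and 52.3 CPM in the ampulla and 1.45, 2.07, 5.32, 0.590 and 0.790 CPM in the upper horn (4.95 ± 0.66, adjusted p = 3.53e-07). CAPS, or calcyphosine, a calcium-binding protein of ciliated cells, was at 2047, 2876, 2811, 2742 and 3223 CPM in the ampulla and 805, 506, 366, 813 and 366 CPM in the upper horn (2.28 ± 0.31, adjusted p = 3.79e-07). The summed level of the list ran from 6269.7 to 7536 CPM over the ampulla libraries and from 844 to 2120 CPM over the upper horn libraries, so cilia genes were present at both sites.

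The regulators that make cells multiciliated varied between heifers. Of 9 tested regulators, 5 rose (CDC20B, CCNO, MCIDAS, FOXJ1 and CEP152), none fell and 4 were not called, with a median of 2.54. Per heifer the median log2 difference of these 9 genes was 3.99, 4.07, 3.47, -0.09 and 0.78. FOXJ1, the master regulator of motile cilia, was at 319.5, 405, 275, 86.1 and 266 CPM in the ampulla and 27.6, 23.9, 3.38, 85.6 and 40.9 CPM in the upper horn (3.11 ± 0.59, adjusted p = 0.000101). In heifer 11070 the levels at the 2 sites were nearly equal. CCNO, a cyclin needed for centriole multiplication, was at 211, 219, 183, 199 and 89.4 CPM in the ampulla and 8.05, 2.07, 21.6, 71.3 and 5.85 CPM in the upper horn (3.69 ± 0.95, adjusted p = 0.00275). CDC20B, a gene of the same locus and process, was at 328, 137, 222, 11.3 and 9.38 CPM in the ampulla and 4.02, 2.54, 6.09, 33.3 and 2.69 CPM in the upper horn (4.21 ± 1.19, adjusted p = 0.00602). Heifers 11070 and 11110 had the lowest ampulla values of CDC20B, and in 11070 the upper horn was higher. The CDC20B call was lost without heifer 10872 (adjusted p = 0.0515) and in the fit of the 10 libraries (adjusted p = 0.077), where 3 of 9 regulators rose.

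Secretory cell genes of the oviduct rose in 6 of 8 tested members, against 18.9% of all features, and none fell, with a median of 4.61. MSLN, or mesothelin, a surface glycoprotein, was at 1262, 2314, 301, 600.5 and 1146 CPM in the ampulla and 32.7, 17.2, 5.51, 9.44 and 8.78 CPM in the upper horn (6.09 ± 0.96, adjusted p = 1.32e-05). WFDC2, a secreted protease inhibitor of genital tract epithelium, was at 1481, 1295, 1595, 2212 and 2008 CPM in the ampulla and 361, 149, 176, 74.2 and 51.7 CPM in the upper horn (3.63 ± 0.64, adjusted p = 3.71e-05). CRISP3, a cysteine-rich secretory protein, was at 68.7, 12.2, 11.8, 4.47 and 12.03 CPM in the ampulla and 0.234, 0, 0, 0 and 0 CPM in the upper horn (8.97 ± 1.49, adjusted p = 2.39e-05). OVGP1, oviductin, the main glycoprotein of oviduct fluid, rose from a low level and is named here after its values were seen, at 5.70, 7.54, 2.56, 2.48 and 4.79 CPM in the ampulla and 2 counts in the upper horn libraries. KRT23 and SLC1A3 completed the 6.

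Of 15 tested genes of general and basal epithelium, 12 rose and 1 fell, with a median of 2.00. Besides KRT5, the basal keratin KRT14 was at 10.2, 6.72, 15.7, 9.59 and 17.1 CPM in the ampulla and 2.25, 0.715, 0.580, 1.99 and 1.86 CPM in the upper horn (3.06 ± 0.48, adjusted p = 5.14e-06). EPCAM, an adhesion molecule of all simple epithelia, had a smaller fold change, at 1525, 1379, 2679, 1264 and 1693 CPM in the ampulla and 1309.5, 736, 419.5, 494 and 342 CPM in the upper horn (1.46 ± 0.27, adjusted p = 5.33e-05), and its groups overlapped. The gene that fell was CLDN4, a tight junction claudin, at 65.0, 80.7, 25.3, 52.5 and 66.8 CPM in the ampulla and 436, 176, 48.1, 74.5 and 58.8 CPM in the upper horn (-1.06 ± 0.34, adjusted p = 0.0123). The upper horn value of heifer 10872 stood far above the rest of the CLDN4 values, and without this heifer the adjusted p was 0.171. Without the upper horn library of heifer 11033, or without that heifer, 3 members of the list fell.

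Endometrial gland and epithelium genes did not move one way. Of 12 tested, 5 rose and 3 fell, with a median of 0.30. SPDEF, a transcription factor of mucous cells, was at 161, 113, 239, 60.8 and 77.0 CPM in the ampulla and 3.09, 0.954, 0, 2.80 and 0.743 CPM in the upper horn (6.47 ± 1.07, adjusted p = 2.43e-05). CXCL17, a chemokine of mucosal surfaces, was at 21.2, 31.3, 24.0, 37.3 and 58.7 CPM in the ampulla and 1.08, 1.83, 2.90, 1.66 and 0.372 CPM in the upper horn (4.46 ± 0.57, adjusted p = 1.20e-07). The opposite held for MSX1, a homeobox gene of uterine epithelium, at 8.05, 7.80, 28.8, 1.68 and 9.44 CPM in the ampulla and 1162, 835, 406, 722 and 355 CPM in the upper horn (-6.18 ± 0.46, adjusted p = 1.64e-12). Its relative MSX2 was lower by the same test (-1.71 ± 0.34, adjusted p = 0.000108), although in heifer 11033 the ampulla value was the higher.

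Genes of the tissue beneath the epithelium were far lower in the ampulla. All 11 tested genes of stromal fibroblasts fell, against 24.1% of all features, with a median of -8.24. The groups did not overlap in any of the 11, against 10.6% of all features with the ampulla below. COL3A1, which codes for collagen III, was at 7.37, 0.127, 7.74, 10.2 and 10.5 CPM in the ampulla and 22043, 25015, 33211, 20723 and 22117 CPM in the upper horn (-11.87 ± 0.87, adjusted p = 4.88e-12). COL6A1, a chain of collagen VI, was at 1.62, 1.20, 0, 0.240 and 0.711 CPM in the ampulla and 2998, 4667, 3675, 3649 and 6040.1 CPM in the upper horn (-12.40 ± 0.52, adjusted p = 6.70e-18). DCN, the matrix proteoglycan decorin, had 0 counts in the ampulla and 19.2, 30.5, 30.9, 38.4 and 58.2 CPM in the upper horn, at least 955-fold lower (adjusted p = 6.74e-15). The summed level of the list was 44.4 to 122.7 CPM over the ampulla libraries and 42814 to 68469 CPM over the upper horn libraries. DCN, LUM, PDGFRA, PDGFRB, POSTN and FN1 had 0 counts in the ampulla, and FN1 also in the upper horn. The 0 of FN1 at both sites is that of its listed feature, as above.

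Endothelial genes fell in 9 of 9 tested members, with a median of -9.12. ROBO4, a guidance receptor of vessels, was at 0.209, 0.634, 0, 0.320 and 0.0647 CPM in the ampulla and 117, 212, 345, 153 and 239 CPM in the upper horn (-9.69 ± 0.46, adjusted p = 3.69e-17). ESAM, an adhesion molecule of endothelial cells, was at 0, 0.0634, 0, 0.0799 and 0.259 CPM in the ampulla and 58.5, 89.5, 114, 49.7 and 86.8 CPM in the upper horn (-9.90 ± 0.49, adjusted p = 8.57e-17). The summed level was 3.74 to 9.96 CPM over the ampulla libraries and 568.1 to 1190.2 CPM over the upper horn libraries. CLDN5, VWF, EGFL7, CDH5 and PECAM1 had 0 counts in the ampulla, PECAM1 also in the upper horn.

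Smooth muscle genes fell in 10 of 10 tested members, with a median of -5.63, or -5.11 with members of 0 counts taken at their bound. CNN1, the actin-binding protein calponin, was at 0.993, 0.507, 0.262, 2.32 and 0.388 CPM in the ampulla and 389.6, 334, 330.2, 109 and 127 CPM in the upper horn (-8.13 ± 0.54, adjusted p = 1.33e-13). LMOD1, leiomodin, which starts actin filaments in smooth muscle, was at 0.157, 0.507, 0.131, 0 and 0.259 CPM in the ampulla and 114, 119, 69.7, 24.0 and 46.4 CPM in the upper horn (-8.48 ± 0.46, adjusted p = 8.70e-16). The summed level was 11.8 to 23.3 CPM over the ampulla libraries and 254 to 1633 CPM over the upper horn libraries. Stromal, vessel and muscle markers were thus low in the same 5 libraries, and the part of these layers in the other gene groups that fell was not tested.

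Myeloid genes were lower in the ampulla, and lymphoid genes were mixed. Of 7 tested myeloid genes 6 fell, against 24.1% of all features, with a median of -2.18. The summed level of the list was 51.1 to 105.3 CPM over the ampulla libraries and 229.8 to 590.1 CPM over the upper horn libraries. The listed features of C1QA, CD68 and MRC1, macrophage genes of this list, held 0 counts at both sites and may understate their genes. CD14, a receptor of macrophages for bacterial lipopolysaccharide, was at 4.08, 5.96, 2.10, 12.8 and 5.63 CPM in the ampulla and 44.4, 69.5, 102, 11.99 and 28.8 CPM in the upper horn (-3.12 ± 0.48, adjusted p = 3.66e-06). MPEG1, a pore-forming protein of macrophages, was at 38.9, 23.6, 16.8, 22.1 and 39.8 CPM in the ampulla and 130.4, 186, 141, 69.3 and 111 CPM in the upper horn (-2.15 ± 0.35, adjusted p = 8.64e-06). Of 8 tested lymphoid genes 4 fell, 1 rose and 3 were not called. The gene that rose was GZMA, a granzyme of cytotoxic lymphocytes, at 27.1, 22.3, 18.03, 8.71 and 6.98 CPM in the ampulla and 0.842, 2.94, 1.35, 3.06 and 2.79 CPM in the upper horn (2.92 ± 0.55, adjusted p = 5.72e-05). CD8A, a coreceptor of cytotoxic T cells, fell by 1.52 on the log2 scale (adjusted p = 0.000231), and so did CD5, a surface protein of T cells, by 2.65 on the log2 scale (adjusted p = 2.83e-08). JCHAIN, the joining chain of polymeric antibodies, was not called and ranged widely in the upper horn, at 14.6, 1349, 23.8, 75.1 and 329 CPM.

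Markers of neighbouring tissues gave mixed counts. Of 5 tested mesothelium genes, MSLN, ALDH1A2 and WT1 rose and UPK3B fell. MSLN and ALDH1A2 also stand in the secretory and the retinoic acid lists. UPK3B, a uroplakin of mesothelium and urothelium, lost its call without the upper horn library of heifer 11033 (adjusted p = 0.061), and BNC1, a transcription factor of mesothelium, had 0 counts at both sites. Of 5 tested genes of ovarian follicle and luteal cells none rose and 3 fell, with HSD17B1, an oestrogen-making enzyme, at -3.22 ± 0.45 (adjusted p = 6.88e-07). Among red cell genes, HBQ1, a theta globin, rose by 0.99 ± 0.21 (adjusted p = 0.000269). HBB, the beta globin, fell, at levels under 5 CPM in every library.

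HOX genes differed by their place in the cluster. Of 11 tested posterior HOX genes, those of paralogue groups 9 to 13, 10 fell and none rose, with a median of -9.30. Their summed level was 0.837 to 2.26 CPM over the ampulla libraries and 453 to 1010.5 CPM over the upper horn libraries. Besides HOXA10, HOXA11 was at 0, 0, 0.262, 0 and 0.129 CPM in the ampulla and 136, 296, 181, 91.1 and 204 CPM in the upper horn (-11.09 ± 0.58, adjusted p = 5.29e-15). HOXA9, known from the oviduct part of the developing duct, was at 0.261, 0.571, 0.131, 0.240 and 0.323 CPM in the ampulla and 67.5, 128, 376, 114 and 344 CPM in the upper horn (-9.30 ± 0.58, adjusted p = 2.16e-14). HOXB9 had 0 counts in the ampulla and 41.7, 18.7, 5.22, 25.4 and 12.2 CPM in the upper horn, at least 597-fold lower (adjusted p = 5.11e-12).

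Of 18 tested anterior HOX genes, those of groups 1 to 8, 5 rose and 7 fell, with a median of -0.26, close to that of all features. HOXC5 was at 17.5, 20.6, 9.90, 8.23 and 18.9 CPM in the ampulla and 2.85, 1.03, 0.193, 0.221 and 0.418 CPM in the upper horn (4.39 ± 0.54, adjusted p = 7.84e-08). HOXA3 was at 10.8, 14.2, 8.26, 4.39 and 4.27 CPM in the ampulla and 2.06, 1.75, 0.483, 3.10 and 1.58 CPM in the upper horn (2.12 ± 0.37, adjusted p = 2.41e-05). HOXB6 fell but kept a substantial level, at 93.0, 78.5, 79.8, 82.4 and 90.6 CPM in the ampulla and 663, 602, 479, 1474 and 1314 CPM in the upper horn (-3.37 ± 0.30, adjusted p = 1.01e-10). The genes that rose were of groups 2 to 5 (HOXC5, HOXA3, HOXA5, HOXB4 and HOXB2), and of the 7 that fell, 6 were of groups 5 to 8 and 1 was HOXA2.

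Among 13 tested transcription factors of Müllerian duct development, 2 rose and 6 fell, against 18.9% and 24.1% of all features. TCF21, a factor of mesenchymal cells, had 0 counts in the ampulla and 16.6, 26.9, 62.0, 26.3 and 16.6 CPM in the upper horn, at least 674-fold lower (adjusted p = 7.92e-14). TWIST2, another mesenchymal factor, was at 0.0523, 0.317, 0.197, 0 and 0.517 CPM in the ampulla and 36.8, 113, 46.8, 40.2 and 72.4 CPM in the upper horn (-8.06 ± 0.48, adjusted p = 6.59e-15). EMX2, a homeobox gene of the urogenital ducts, was at 333, 346, 199, 1248 and 454 CPM in the ampulla and 182, 172, 532, 107 and 124 CPM in the upper horn (1.26 ± 0.38, adjusted p = 0.00858). The ampulla of heifer 11070 held by far the highest EMX2 value, and without this heifer the adjusted p was 0.27 and none of the list rose.

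**Figure D3:**
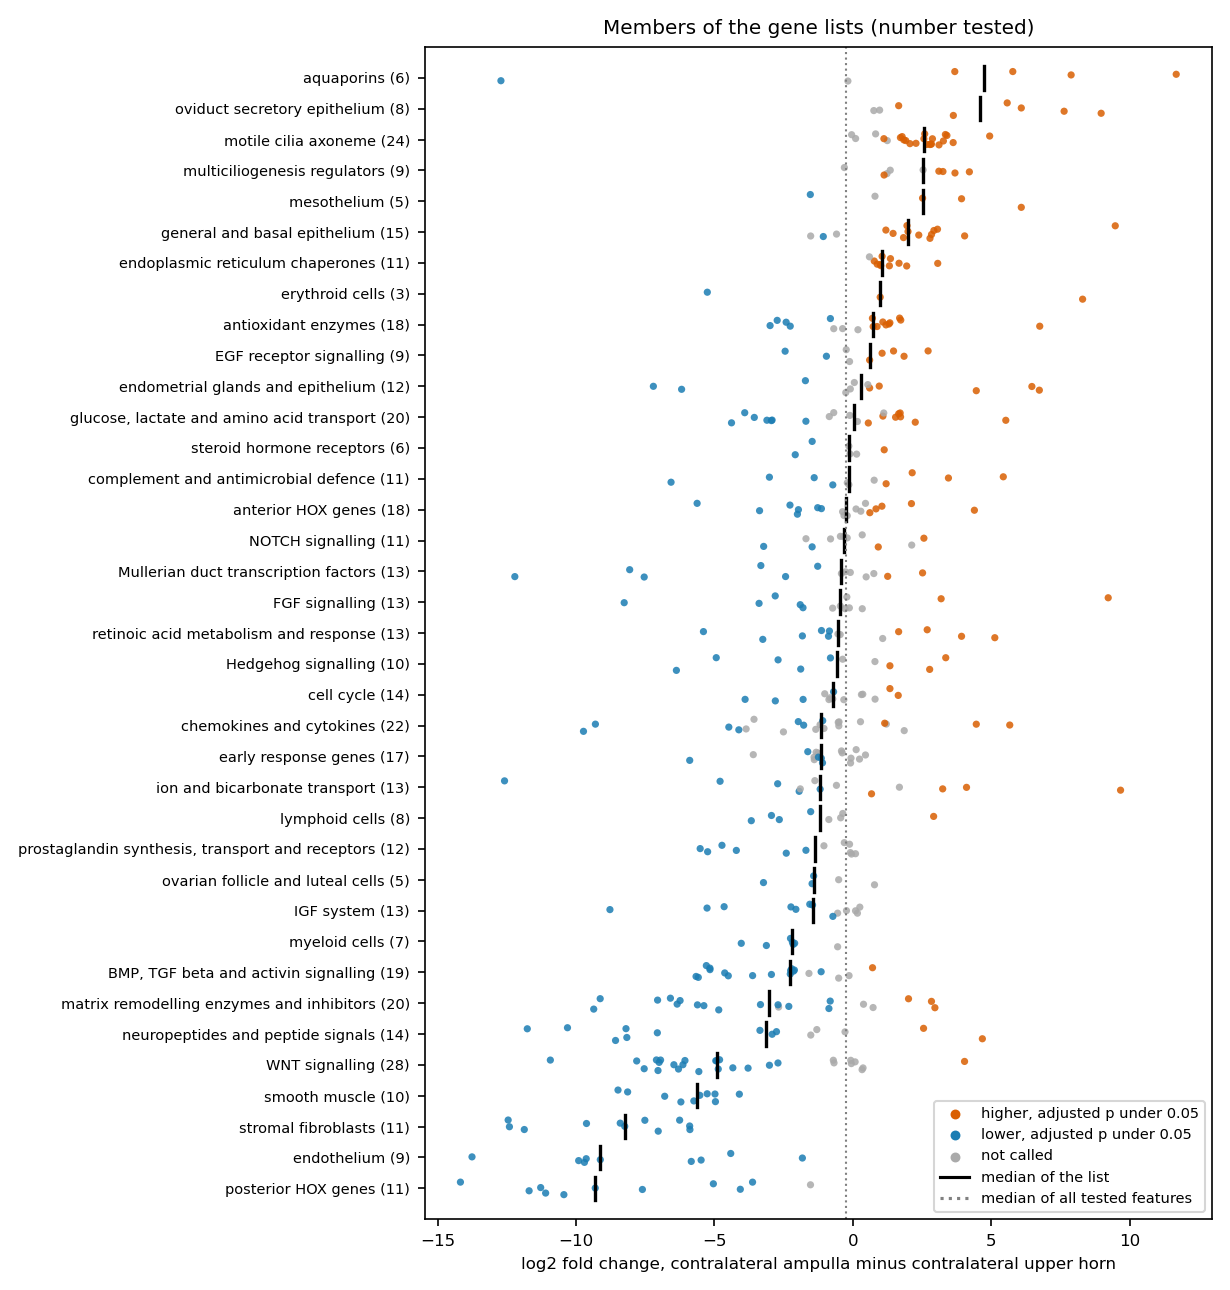
Log2 fold changes (ampulla minus upper horn) of the tested members of the 37 gene lists, 1 point per gene, coloured by call, with a bar at the median of each list, the number tested in brackets and a dotted line at the median of all features, -0.23. Aquaporin, secretory and cilia lists lie to the right, and posterior HOX, endothelium, stroma and smooth muscle lists to the left.

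Many signalling genes also fell, in the same libraries in which stromal, vessel and muscle markers were low. In WNT signalling, lipid-modified ligands act through Frizzled receptors and are held back by secreted inhibitors. Of its 28 tested members 20 fell and 1 rose, with a median of -4.89. The members that fell covered ligands (WNT2, WNT5A, WNT6, WNT7A and WNT16), amplifiers (RSPO1 and RSPO3) and inhibitors (SFRP1, SFRP2, SFRP4, SFRP5, DKK1, DKK2, DKK3, WIF1 and NOTUM). WNT2 was at 0, 0.127, 0, 0.160 and 0 CPM in the ampulla and 75.8, 202, 118, 61.7 and 110.2 CPM in the upper horn (-10.92 ± 0.61, adjusted p = 1.00e-15). RSPO3, an R-spondin that strengthens WNT signals, was at 0.0523, 0, 0.393, 0 and 0 CPM in the ampulla and 46.2, 12.4, 42.2, 4.57 and 4.13 CPM in the upper horn (-7.80 ± 0.86, adjusted p = 2.18e-08). WNT7B, a ligand of epithelia, was the member that rose. FZD1, a receptor, was not called, at 287 ± 101 CPM (mean ± SD) in the ampulla and 223 ± 66.0 CPM in the upper horn.

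BMP, TGF beta and activin signalling includes secreted ligands, antagonists that bind them and the ID genes that answer to BMP. Of 19 tested members 15 fell and 1 rose, with a median of -2.26. ID1, an inhibitor of DNA binding, was at 2.35, 8.75, 4.26, 33.0 and 15.8 CPM in the ampulla and 376, 311, 207, 167 and 102 CPM in the upper horn (-4.62 ± 0.89, adjusted p = 0.000151). The lowest fold changes with at least 5 CPM in a group included BMP3, a ligand known to oppose other BMPs, at -5.16 ± 0.84 (adjusted p = 6.61e-06). ID4 was the member that rose (0.71 ± 0.22, adjusted p = 0.00896), and its call was lost without heifer 11110 (adjusted p = 0.0927).

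Hedgehog ligands went in opposite directions. IHH, the ligand made by uterine epithelium under progesterone, was at 5.80, 3.61, 4.72, 2.16 and 10.2 CPM in the ampulla and 215, 157, 93.7, 273 and 76.6 CPM in the upper horn (-4.93 ± 0.43, adjusted p = 7.44e-11). SHH, the related ligand, was at 3.61, 5.96, 2.88, 13.1 and 10.9 CPM in the ampulla and 1.08, 1.11, 0.580, 0.627 and 0.325 CPM in the upper horn (3.36 ± 0.62, adjusted p = 4.87e-05). In neither ligand did the groups overlap. The coreceptor BOC was higher in the ampulla at 131, 143, 81.1, 139 and 134 CPM against 18.6, 10.02, 9.86, 35.9 and 21.97 CPM (2.78 ± 0.32, adjusted p = 2.74e-08), and the coreceptor GAS1 rose by 1.34 ± 0.25 (adjusted p = 5.14e-05). HHIP, a decoy receptor, was lower at 0.261, 0, 0.0656, 0 and 0.0647 CPM against 7.91, 7.23, 12.3, 7.38 and 3.95 CPM (-6.37 ± 0.76, adjusted p = 2.88e-08). PTCH1, SUFU and GLI2, the ligand receptor, a brake and a transcription factor of the pathway, also fell, which made 3 higher and 5 lower of 10 tested. Without heifer 11110, 3 fell, and in the fit of the 10 libraries alone 2 of 9 fell.

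Of 9 tested genes of EGF receptor signalling 5 rose and 2 fell, with a median of 0.61. BTC, or betacellulin, a ligand, was at 39.0, 41.3, 73.4, 35.2 and 51.2 CPM in the ampulla and 22.5, 13.0, 9.67, 20.2 and 19.3 CPM in the upper horn (1.47 ± 0.25, adjusted p = 1.49e-05). LRIG1, a membrane inhibitor of these receptors, was at 411, 322, 285, 287 and 394 CPM in the ampulla and 98.5, 65.5, 78.4, 129 and 98.1 CPM in the upper horn (1.85 ± 0.22, adjusted p = 5.24e-08). The receptor gene ERBB2 rose by 1.06 ± 0.19 (adjusted p = 3.99e-05), with overlapping groups. NRG2, a neuregulin ligand, was lower, at 6.43, 4.37, 5.90, 6.07 and 6.14 CPM against 13.9, 25.04, 50.3, 24.3 and 43.6 CPM (-2.44 ± 0.32, adjusted p = 2.03e-07). The receptor gene ERBB3, also in the endometrial list, rose by 0.61 ± 0.21 (adjusted p = 0.0212), a call lost under several alternatives. Without heifer 10882, 11033 or 11110 its adjusted p was 0.119, 0.0711 and 0.0809. Without heifer 11110, 3 members rose, as in the fit of the 10 libraries alone.

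Of 13 tested FGF genes 2 rose and 5 fell, against 18.9% and 24.1% of all features. SPRY4, an intracellular brake on these receptors, had 1 count in the upper horn and 15.9, 7.35, 14.6, 1.12 and 5.56 CPM in the ampulla, a ratio of 885 (95% counting interval 158 to 34997). SPRY1, its relative, went the other way, at 13.9, 8.81, 13.0, 6.63 and 7.89 CPM in the ampulla and 39.8, 40.1, 17.5, 45.9 and 49.7 CPM in the upper horn (-1.90 ± 0.31, adjusted p = 9.73e-06). FGF10, a growth factor of mesenchyme that acts on epithelium, was at 2.98, 2.47, 3.61, 0.479 and 1.23 CPM in the ampulla and 15.3, 17.6, 21.5, 40.1 and 27.9 CPM in the upper horn (-3.38 ± 0.41, adjusted p = 4.48e-08). FGF2 was not called, at 56.4 ± 11.1 CPM (mean ± SD) in the ampulla and 44.3 ± 7.42 CPM in the upper horn.

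In the IGF system, growth factors whose access to receptors is set by binding proteins, 8 of 13 tested members fell and none rose, with a median of -1.45. GHR, the growth hormone receptor, was at 1.73, 1.71, 1.57, 0.399 and 2.39 CPM in the ampulla and 61.5, 85.6, 13.1, 66.0 and 87.7 CPM in the upper horn (-5.26 ± 0.45, adjusted p = 5.68e-11). IGFBP1 had 1 count in the ampulla and 15.8, 17.5, 8.605, 0.148 and 1.07 CPM in the upper horn, a ratio of 566 (95% counting interval 101 to 22383). The upper horn level of IGFBP1 was low in heifers 11070 and 11110. IGFBP2, IGFBP3, IGFBP4, IGFBP6 and IGFBP7 also fell, and IGFBP7 kept 289 ± 62.0 CPM (mean ± SD) in the ampulla against 817 ± 438 CPM.

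NOTCH signalling, which passes between touching cells, gave 2 higher and 2 lower calls among 11 tested members, no larger a share than the 18.9% and 24.1% of all features. The glycosyltransferases that tune NOTCH receptors differed in direction, as LFNG rose by 0.92 ± 0.18 (adjusted p = 9.22e-05) and MFNG fell by 3.22 on the log2 scale (adjusted p = 1.29e-09). Between 4 and 5 members fell with DESeq2, with its size factors, without a filter on low counts, without the upper horn library of heifer 11033, or without heifer 10872 or 10882.

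Peptide signals went in both directions. GRP, gastrin-releasing peptide, a growth-promoting peptide of endometrial glands, was at 34.8, 0.697, 0.328, 4.07 and 0.841 CPM in the ampulla and 11445, 4383, 6749.6, 3281 and 1804 CPM in the upper horn (-10.30 ± 0.96, adjusted p = 2.05e-09). NTS, or neurotensin, was the reverse, at 87.3, 59.1, 133, 23.8 and 16.9 CPM in the ampulla and 3.79, 2.54, 5.70, 0.443 and 0.650 CPM in the upper horn (4.68 ± 0.60, adjusted p = 1.87e-07). Of 14 tested peptide genes 9 fell and 2 rose, with a median of -3.13. OXTR, the oxytocin receptor, was among those that fell, together with PENK, EDN1, EDN3, EDNRA, NPPC and UCN.

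Chemokines and cytokines fell in 7 of 22 tested members and rose in 3. CCL26, an eotaxin, was at 6.01, 42.7, 9.24, 48.1 and 16.8 CPM in the ampulla and 0.749, 0.397, 0.0967, 0.184 and 0.557 CPM in the upper horn (5.67 ± 0.88, adjusted p = 3.92e-06). CCL14 was at 0, 0.127, 0.328, 0 and 0.129 CPM in the ampulla and 55.3, 114, 389, 6.97 and 57.8 CPM in the upper horn (-9.73 ± 0.50, adjusted p = 1.90e-16). CXCL12, a homing signal made by stroma, had 1 count in the ampulla and 12.6, 15.98, 3.96, 4.28 and 19.5 CPM in the upper horn, a ratio of 880.3 (95% counting interval 158 to 34804). The lower share, 7 of 22, was near the 24.1% of all features, and 13 of 29 fell without a filter on low counts.

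Of 6 tested genes of steroid hormone receptors 1 rose and 2 fell, against 18.9% and 24.1% of all features. PGR, the progesterone receptor, was at 6.59, 3.80, 2.88, 1.598 and 2.85 CPM in the ampulla and 15.9, 19.7, 7.93, 20.1 and 13.1 CPM in the upper horn (-2.08 ± 0.34, adjusted p = 8.46e-06). ESR2, the oestrogen receptor beta, was at 14.4, 6.97, 6.36, 12.5 and 5.76 CPM in the ampulla and 22.1, 12.6, 29.2, 42.2 and 19.6 CPM in the upper horn (-1.47 ± 0.30, adjusted p = 0.000151), lower in 5 of 5 heifers although the groups overlapped. PGRMC1, a membrane protein that binds progesterone, rose by 1.14 ± 0.23 (adjusted p = 0.000158). ESR1, the oestrogen receptor alpha, had too few counts in its feature to be tested.

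Prostaglandin genes cover the enzymes, transporters and receptors of these lipid signals, which act on oviduct muscle and on the endometrium. Of 12 tested 6 fell and none rose, with a median of -1.37. PTGES, the inducible prostaglandin E synthase, was at 0.209, 0.507, 0.787, 0.959 and 0.647 CPM in the ampulla and 25.5, 36.2, 59.0, 11.2 and 19.2 CPM in the upper horn (-5.51 ± 0.57, adjusted p = 2.51e-09). SLCO2A1, the prostaglandin transporter, was at 0.209, 0.254, 0, 0 and 0.259 CPM in the ampulla and 5.71, 3.66, 4.16, 7.30 and 9.57 CPM in the upper horn (-5.24 ± 0.51, adjusted p = 5.49e-10). PTGES2, another prostaglandin E synthase, was not called, at 97.3, 72.5, 64.2, 64.2 and 87.6 CPM in the ampulla and 127, 89.0, 61.8, 49.2 and 41.7 CPM in the upper horn. PTGS2, PTGDR, PTGIR and HPGD completed the 6 that fell.

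Retinoic acid, made from vitamin A, is a regulator of epithelial state. RARRES1, a gene induced by retinoic acid, was at 36268, 28905, 57254, 13504 and 22024 CPM in the ampulla and 1476, 1001, 1357, 381 and 504 CPM in the upper horn (5.13 ± 0.63, adjusted p = 1.27e-07). ALDH1A2, an enzyme that makes retinoic acid, was at 783, 953, 735, 553 and 631 CPM in the ampulla and 79.4, 59.9, 44.2, 12.8 and 44.4 CPM in the upper horn (3.93 ± 0.63, adjusted p = 1.17e-05). RDH10, an enzyme that oxidises retinol, was lower, at 30.1, 18.9, 26.9, 3.83 and 13.8 CPM in the ampulla and 108, 86.6, 12.1, 53.2 and 72.0 CPM in the upper horn (-1.82 ± 0.37, adjusted p = 0.000151), although in heifer 11033 the ampulla value was the higher of the pair. Of 13 tested members 4 rose and 6 fell, so the list as a whole had no one direction.

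Channels and transporters set the fluid at each site. Of 6 tested aquaporins 4 rose and 1 fell. The summed level of the list was nevertheless lower in the ampulla, at 19.1 to 53.1 CPM, than in the upper horn, at 87.9 to 722 CPM. AQP9, which passes water, glycerol and urea, had 0 counts in the upper horn and 12.8, 20.2, 38.4, 7.11 and 24.8 CPM in the ampulla, at least 643-fold higher (adjusted p = 1.99e-07). AQP6 was at 13.0, 13.3, 10.6, 9.51 and 9.83 CPM in the ampulla and 0.936, 0.159, 0, 0 and 0 CPM in the upper horn (5.78 ± 0.94, adjusted p = 7.84e-06). The gene that fell was AQP1, described above. Among 13 tested genes of ion and bicarbonate transport 4 rose and 5 fell. P2RX2, an ATP-gated ion channel, had 2 counts in the upper horn and 7.16, 33.8, 4.98, 8.47 and 19.5 CPM in the ampulla, a ratio of 686 (95% counting interval 189.5 to 5673).

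CA2, a carbonic anhydrase that makes bicarbonate, was at 421, 392, 468, 147 and 377 CPM in the ampulla and 24.7, 9.46, 8.89, 108 and 10.5 CPM in the upper horn (4.11 ± 0.88, adjusted p = 0.000480). CFTR, the chloride and bicarbonate channel, was the reverse, at 0.523, 0.444, 0.983, 0.639 and 0.841 CPM in the ampulla and 64.8, 24.2, 7.73, 13.2 and 11.1 CPM in the upper horn (-4.79 ± 0.60, adjusted p = 1.09e-07). KCNJ8, a potassium channel of vessel wall cells, had 0 counts in the ampulla and 28.3, 58.6, 45.5, 22.6 and 31.2 CPM in the upper horn, at least 868-fold lower (adjusted p = 2.91e-15). In heifer 11070 CA2 was lower in the ampulla and higher in the upper horn than in the other 4 heifers.

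Of 20 tested carriers of glucose, lactate and amino acids 8 rose and 7 fell, with a median of 0.03. SLC5A1, which takes up glucose with sodium, was at 77.1, 61.6, 62.9, 13.4 and 20.4 CPM in the ampulla and 0.936, 1.03, 0, 2.25 and 0.650 CPM in the upper horn (5.53 ± 0.88, adjusted p = 9.12e-06). SLC2A3, a glucose carrier of high affinity, was at 2.51, 2.22, 0.721, 2.24 and 2.97 CPM in the ampulla and 31.2, 36.5, 42.3, 34.5 and 66.7 CPM in the upper horn (-4.38 ± 0.48, adjusted p = 8.93e-09). SLC2A1, the widespread glucose carrier, differed by 0.56 ± 0.16 (adjusted p = 0.00441), and without heifer 10882 its adjusted p was 0.0716. The amino acid carriers SLC1A4 and SLC1A1 were changed in opposite directions. SLC1A4 was at 264, 153, 211, 311 and 206 CPM in the ampulla and 45.1, 37.3, 32.2, 76.6 and 54.6 CPM in the upper horn (2.26 ± 0.23, adjusted p = 1.77e-09). SLC1A1 was at 21.3, 8.37, 13.2, 10.4 and 7.63 CPM in the ampulla and 266, 125, 15.9, 422 and 150.2 CPM in the upper horn (-3.90 ± 0.47, adjusted p = 5.53e-08).

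Antioxidant enzymes rose in 10 of 18 tested members and fell in 5, with a median of 0.72. Besides GPX2, PRDX6, a peroxiredoxin, was at 769, 736, 1094, 868 and 733 CPM in the ampulla and 371, 299, 286, 199 and 145 CPM in the upper horn (1.73 ± 0.21, adjusted p = 5.08e-08). HMOX1, heme oxygenase, was lower, at 16.3, 18.004, 17.2, 18.1 and 30.9 CPM in the ampulla and 90.7, 203, 74.4, 40.8 and 90.2 CPM in the upper horn (-2.26 ± 0.33, adjusted p = 1.21e-06). GPX7, a peroxidase of the endoplasmic reticulum, fell by 2.41 on the log2 scale (adjusted p = 3.71e-10). Without the ampulla library of heifer 11070 or of heifer 11110, 3 members fell. The fit of the 10 libraries alone called 5 of 16 higher and 3 lower.

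Complement genes went in both directions. C3, the central complement protein, was at 1195, 3036, 431, 2395 and 1537 CPM in the ampulla and 139, 126, 159, 115 and 159 CPM in the upper horn (3.46 ± 0.54, adjusted p = 6.98e-06). CFD, a protease of the alternative pathway, was at 301, 355, 278, 655 and 278 CPM in the ampulla and 68.8, 97.9, 149, 39.1 and 66.1 CPM in the upper horn (2.15 ± 0.34, adjusted p = 5.80e-06). C1S, a protease of the classical pathway, was lower, at 6.54, 11.0, 5.51, 7.27 and 6.73 CPM in the ampulla and 483, 1044, 560.2, 478 and 1112 CPM in the upper horn (-6.56 ± 0.35, adjusted p = 7.92e-16). Of 11 tested genes of complement and antimicrobial defence 4 rose and 4 fell, and without the upper horn library of heifer 11033, 2 fell. The fit of the 10 libraries alone called 2 of 8 higher and 2 lower.

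Matrix remodelling enzymes and their inhibitors fell in 14 of 20 tested members and rose in 3, with a median of -3.02. MMP2, a gelatinase of fibroblasts, was at 11.97, 2.66, 5.44, 0.559 and 3.49 CPM in the ampulla and 2114, 4402, 1350.1, 1387 and 3334 CPM in the upper horn (-9.12 ± 0.57, adjusted p = 3.96e-14). TIMP4, an inhibitor of such enzymes, rose, at 83.8, 97.3, 90.6, 76.6 and 61.2 CPM in the ampulla and 7.63, 12.2, 8.22, 20.1 and 11.47 CPM in the upper horn (2.84 ± 0.28, adjusted p = 7.19e-10). MMP7, matrilysin, an enzyme of epithelia, rose by 2.01 ± 0.59 (adjusted p = 0.00677), and without heifer 11070 its adjusted p was 0.0694.

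Chaperones of the endoplasmic reticulum, which fold secreted proteins, rose in 10 of 11 tested members, and none fell, with a median of 1.06. The fit of the 10 libraries alone called 5 of 11 higher. HSP90B1, or GRP94, was at 3409, 5407, 4692, 1158 and 1352 CPM in the ampulla and 1154, 999.6, 764, 736 and 709 CPM in the upper horn (1.67 ± 0.37, adjusted p = 0.000407). SDF2L1 was at 215, 379, 285, 61.7 and 79.5 CPM in the ampulla and 32.4, 20.3, 27.3, 16.3 and 9.89 CPM in the upper horn (3.07 ± 0.64, adjusted p = 0.000302). CRELD2 was at 151, 237, 211, 67.8 and 122 CPM in the ampulla and 48.2, 42.0, 41.0, 35.3 and 27.4 CPM in the upper horn (1.95 ± 0.38, adjusted p = 0.000118). At each of the sites, heifers 11070 and 11110 had the lowest levels of all 3 genes. HSPA5, the best known of these chaperones, had 0 counts in its feature at both sites.

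Cell cycle genes gave 2 higher and 4 lower calls among 14 tested, near the 18.9% and 24.1% of all features. The fit of the 10 libraries alone gave 0 higher and 2 lower calls among 11. CCNB1, the cyclin of mitotic entry, was at 11.7, 6.09, 13.8, 3.28 and 1.81 CPM in the ampulla and 152, 90.6, 78.5, 128 and 45.9 CPM in the upper horn (-3.89 ± 0.36, adjusted p = 1.84e-10). CCNA2, a cyclin of DNA synthesis, was at 4.50, 4.25, 6.03, 2.24 and 4.397 CPM in the ampulla and 17.7, 18.4, 11.0, 12.8 and 9.10 CPM in the upper horn (-1.79 ± 0.33, adjusted p = 4.04e-05). PLK1, a mitotic kinase, was not called, at 134, 75.4, 43.5, 68.5 and 108 CPM in the ampulla and 61.1, 42.2, 45.9, 126 and 89.0 CPM in the upper horn. CCND2, a cyclin of early cell cycle, rose by 1.64 ± 0.46 (adjusted p = 0.00479), and without the ampulla library of heifer 11070 its adjusted p was 0.0863 and no member of the list rose.

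Early response genes, which answer within minutes to stress and handling of tissue, had 5 lower and 0 higher calls among 17 tested members, with a median of -1.14. The share of lower calls was near the 24.1% of all features. JUN, a transcription factor of this group, was not called, at 347, 465.9, 404, 876 and 1049.9 CPM in the ampulla and 936, 643, 695, 617 and 409.7 CPM in the upper horn. KLF2, a factor answering to flow in vessels, fell by 1.24 on the log2 scale (adjusted p = 0.00333), and without heifer 11033 its adjusted p was 0.0601 and 2 members fell. With DESeq2 the number that fell was 8, as it was without the ampulla library of heifer 11110, and 10 of 19 fell without a filter on low counts.

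**Figure D4:**
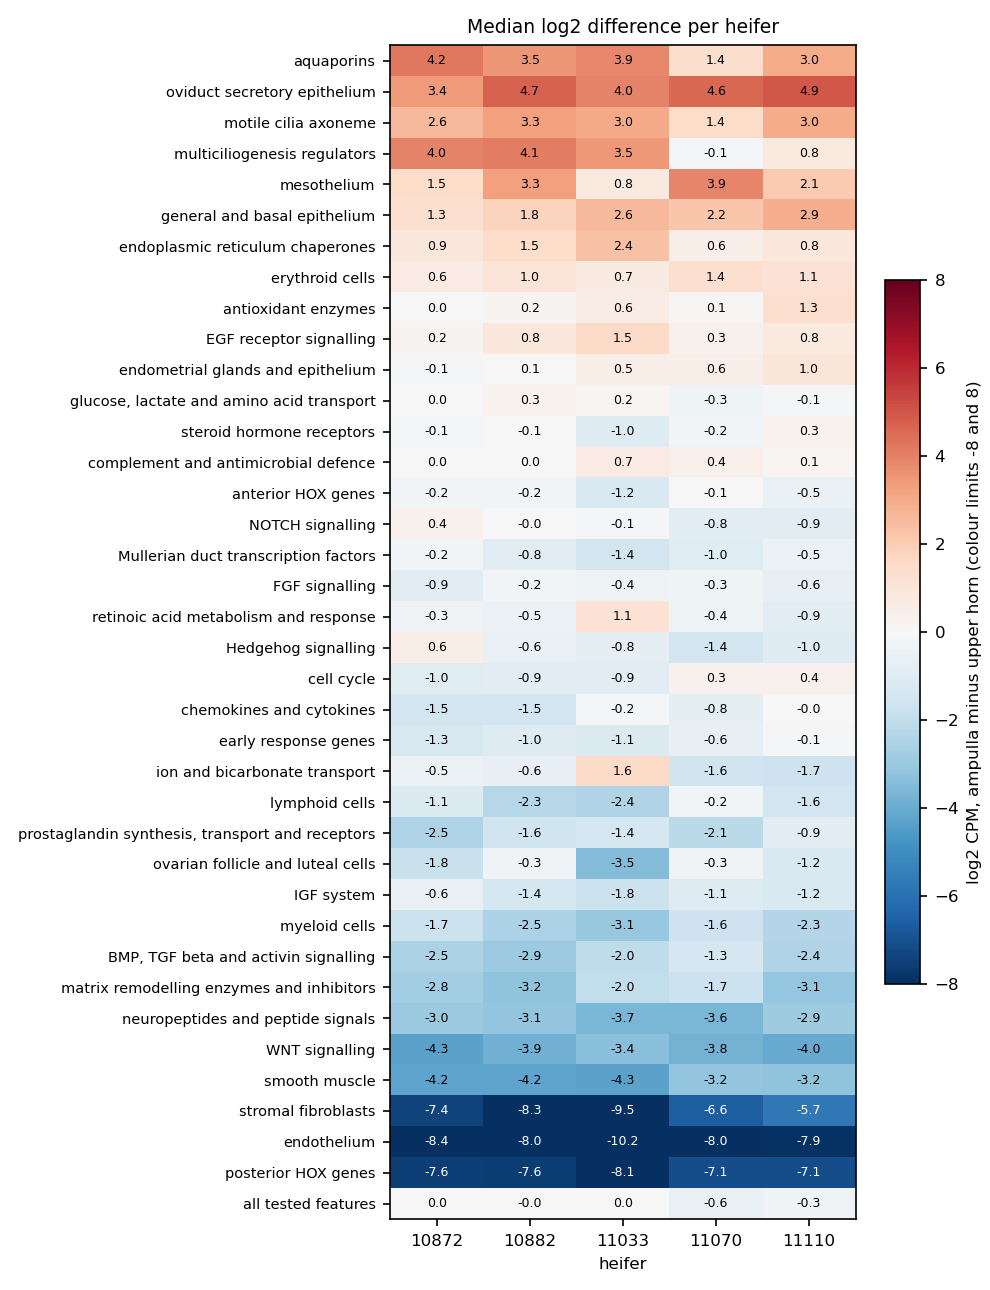
Median log2 difference (ampulla minus upper horn) of the tested members of each list in each heifer, with colour from lower in the ampulla (blue) to higher (red) and the median over all tested features in the last row. Posterior HOX, endothelium and stroma lists are the lowest in all 5 heifers, and the regulators of multiciliated cells differ between heifers, from 4.07 in 10882 to -0.09 in 11070.

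The same step on the ipsilateral side asked whether the contrast between the 2 sites depends on the side of ovulation. There, 6725 features were called (39.0%), of which 3225 rose and 3500 fell toward the ampulla. Called on both sides were 5574 features, all in the same direction, and 1851 were called on the contralateral side only and 1151 on the ipsilateral side only. The difference of the 2 sides, tested as an interaction in edgeR, was called for 0 of 17241 features, with a smallest adjusted p of 0.179. At an unadjusted p under 0.05 were 724 features (4.20%), and DESeq2 called 1. A side difference was therefore not shown for any feature called on 1 side only, and its absence was not shown either, as the median SE of the difference was 0.76 on the log2 scale.

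Values of both sides are given beside each other for a few genes and lists. KRT5 changed by 9.48 ± 1.40 on the contralateral and 9.86 ± 1.58 on the ipsilateral side, and COL3A1 by -11.87 ± 0.87 and -11.64 ± 0.87. The cilia axoneme list had 20 higher calls and a median of 2.59 on the contralateral side, and 21 and 2.86 on the ipsilateral side. The stromal list fell in 11 of 11 members on each side, with medians of -8.24 and -8.73. The chaperone list rose in 10 members on each side, with medians of 1.06 and 2.00. The gene named next was picked after its values were seen. ERRFI1, a feedback inhibitor of EGF receptors, had the smallest p of a side difference among the 141 named genes. Its log2 fold change was -0.95 ± 0.28 on the contralateral and -2.68 ± 0.30 on the ipsilateral side, a difference of 1.72 ± 0.40 (unadjusted p = 0.000156, adjusted p = 0.604).

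The spread between heifers was computed on both sides. The SD over heifers of the log2 difference between the sites had a median over features of 1.17 on the contralateral side and 0.635 on the ipsilateral side, and of 1.19 on the contralateral side over the 4 heifers with both ipsilateral samples. Without heifers 11033 and 11070, the contralateral value over 3 heifers was 0.79. The upper horn library of heifer 11033 and the ampulla library of heifer 11070 held the fewest tested features. The SD of log2 CPM within a group had a median of 0.75 in the contralateral ampulla and 0.87 in the contralateral upper horn, against 0.61 and 0.52 on the ipsilateral side. These spreads are descriptions and were not tested.

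**Figure D5:**
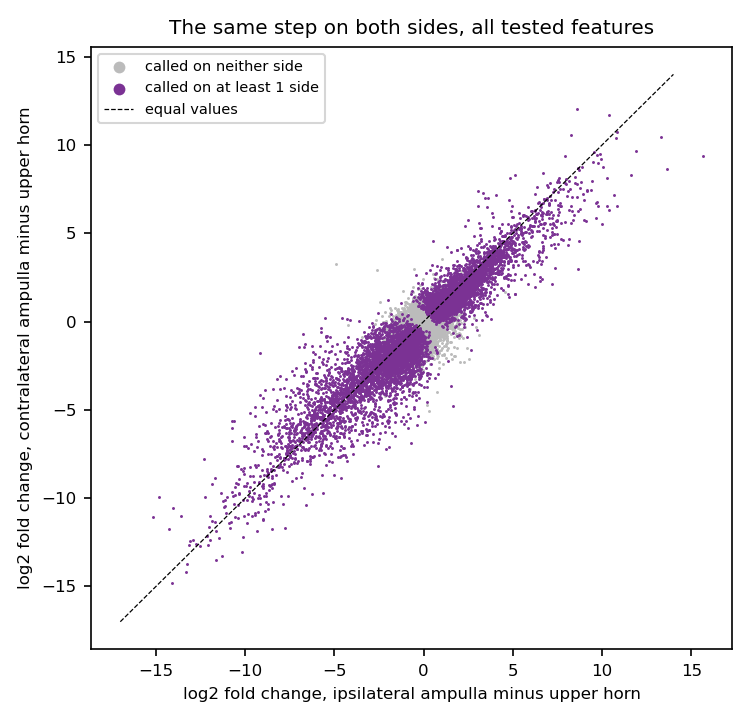
Log2 fold change (ampulla minus upper horn) of each of the 17241 tested features on the ipsilateral (x axis) and the contralateral side (y axis), with features called on at least 1 side in purple and a dashed line of equal values. The 5574 features called on both sides have the same direction on both.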

How the data were processed

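The authors deposited 1 table of raw read counts, whole numbers with 1 column per library and 38568 features, most of them single transcript accessions. Tissue was homogenised with beads, RNA was purified on columns and a directional library kit was used, per the labels' protocols. The submitters' processing notes list STAR 2.7.9a, HTSeq, cutadapt and SAMtools, with no role for any. The build, the annotation, the strand setting and the treatment of shared reads were not given in the sources used here, so overlapping genes, antisense genes and close families are uncertain.

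RefSeq genes of ARS-UCD2.0 gave names only, with no coordinates. They matched 26092 features to 21284 genes (95.3% of counts). Where a gene had several features, the feature of highest mean count was used.

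All 34 libraries were fitted with edgeR 4.0.16 in R 4.3.3 (TMM, filterByExpr, robust dispersions, quasi-likelihood F test) on a design of group plus heifer, which kept 17241 features. Heifer is a block because the labels put both sites in 1 animal. Deviations from group means correlated with a median of 0.073 within heifers (5 pairs) and -0.050 between heifers (20 pairs). Within heifers the values ran from -0.230 in 11070 to 0.123 in 11110. In only 1 of 5 heifers did the ampulla correlate best with its own upper horn. No 2 libraries of either group had identical counts or agreed within sampling noise. CPM are counts over TMM-scaled totals. Where a group had 0 counts, a fold is a bound at 3 counts over its 5 libraries, and 1 to 3 counts carry exact 95% intervals, both for counting error only. Principal components used log2 CPM with a prior count of 2.

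The groups, 37 gene lists and tests were chosen with earlier results of these data known, so no list is independent support. Named genes were the 12 highest and 12 lowest fold changes among called genes with a symbol, the same direction in 5 of 5 heifers and a mean of at least 50 CPM in the higher group. In each list they were up to 2 highest and 2 lowest called members with at least 5 CPM, and the member with the highest mean. For a side difference the rule needed a call, and there was none. Some genes that the rule names, 1 of them among the 12 lowest, are not reported here. The fit was tested on simulated counts with the same dispersion of a feature in every group and no heifer effect. That run could not show an effect of unequal spread between groups. Alternatives were DESeq2 1.42.0, other scaling, filters, models and libraries left out, 15 planned and 4 chosen after seeing the data.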

Additional observations from a re-analysis of the deposited data

Results flagged for a closer look

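In 290 groups of 5 values, 1 value was set far from the other 4 in 22, by a gap that chance gives in about 1 of 20 groups. The flags fell on 9 of the 10 libraries. The values are given without an explanation.

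In the upper horn library of heifer 10882, RN18S1 took 19.63% of counts, against 0.75% to 1.49% in the other 4 upper horn libraries, and LOC112444681 took 29.19%, against 0.58% to 1.35%. In the upper horn library of heifer 11033, 13537 tested features had a count, against 16308 to 17002. That library was also the lowest of its group for SPRY1, at 17.5 CPM against 39.8 to 49.7, and for GHR, at 13.1 CPM against 61.5 to 87.7.

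The ampulla library of heifer 11070 was the lowest of its group for FOXJ1, at 86.1 CPM against 266 to 405, for CA2, at 147 CPM against 377 to 468, and for GHR, at 0.399 CPM against 1.57 to 2.39. It was the highest for CFD, at 655 CPM against 278 to 355, and for CCND2, at 26.0 CPM against 3.23 to 5.31. The ampulla library of heifer 11033 was the lowest for BOC, at 81.1 CPM against 131 to 143, for SLC2A3, at 0.721 CPM against 2.22 to 2.97, and for UPK3B, at 0.656 CPM against 3.35 to 4.37. It was the highest for RSPO3, at 0.393 CPM against 0 to 0.0523.

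In the ampulla of heifer 11110, CCNO was the lowest at 89.4 CPM against 183 to 219, and HMOX1 the highest at 30.9 CPM against 16.3 to 18.1. In the ampulla of heifer 10882, COL3A1 stood at 0.127 CPM against 7.37 to 10.5, and NRG2 at 4.37 CPM against 5.90 to 6.43. In the ampulla of heifer 10872, FZD1 was the highest at 463 CPM against 215 to 268. In the upper horn of heifer 10872, PITX1 was the highest at 1.36 CPM against 0.139 to 0.290, and NT5E at 16.4 CPM against 5.01 to 6.34. In the upper horn of heifer 11070, SLC2A1 was the highest at 214 CPM against 168 to 180.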

How the results depend on the processing

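The number of features called between the contralateral sites stayed within 1.5 times of 7425 under all alternatives except the fit of the 10 libraries alone, which called 2913 of 11606 tested (1428 higher and 1485 lower). Fewer features passed the filter in that fit, and the cause of the drop in calls was not tested. Leaving out each heifer gave 5914 to 7462 calls, 2648 to 3301 higher and 3266 to 4214 lower, with the fewest without heifer 11110. Without the replicate block, so that the sites were not paired within an animal, 7016 were called (2918 higher and 4098 lower), and of the named genes ERBB3 lost its call (adjusted p = 0.0873). The ipsilateral step had 5520 to 6206 calls without 1 heifer and 6047 without the block, against 6725. A fit of the 9 ipsilateral libraries alone called 6049 of 13133 tested. With DESeq2 size factors 41.3% of calls were higher, against 44.0%. For the gene lists, the fit of the 10 libraries alone had 18 counts of higher or lower members rated as moved and 56 as the same. Carriers of glucose, lactate and amino acids went to 4 higher and 4 lower of 16, and retinoic acid genes to 1 lower of 11. Anterior HOX genes went to 2 higher of 16.

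The side difference had 0 calls under all but 3 settings. It had 1 call with DESeq2 and 40 without a filter on low counts, of 38568 features, and 0 to 2 over the leave-one-out settings, with 2 without heifer 10872. The cause was not tested.

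Of 141 named genes, 122 kept their call and direction under all 19 alternatives in which they were tested. Calls were lost under at least 1 of them by CDC20B, CLDN4, ERBB3, UPK3B, HBQ1, EMX2, ID4, DLL1, RDH10, SLC2A1, MMP7, CCND2, EGR3 and KLF2, and gained by JCHAIN, NOTCH3 and CXCL16. The other 2, PTGES2 and JUN, were not called under any alternative and changed direction. The log2 fold change of PTGES2 went from 0.10 to -0.016 without both libraries with the fewest features, and to between -0.087 and 0.269 with 1 heifer or library left out. That of JUN went from -0.08 to 0.13 without both of these libraries, and to between -0.631 and 0.25 with 1 left out, including 0.06 without the upper horn library of heifer 11033 and 0.122 without that heifer.

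For genes at or near 0 counts, depth sets the bounds. ESR1 and HSPA5 held too few counts in their features to be tested, and the cause was not tested. With 5 heifers, a median SE of 0.534 leaves small changes undetected.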

Other observations

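Of 956 tested features of long noncoding RNAs 271 were higher and 224 lower in the ampulla (51.8% called), and of 10719 protein-coding features 2202 were higher and 2668 lower (45.4%). The difference between these shares was not tested.

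In the ampulla of both sides, heifers 11070 and 11110 had the lowest values of CDC20B, HSP90B1 and SDF2L1, which were picked after the data were examined and are given as values only. In the ipsilateral ampulla, with the 5 heifers in the order used in the report, CDC20B was at 159, 174, 172, 59.4 and 10.3 CPM and CCNO at 189.5, 137, 219, 64.1 and 72.7 CPM. For CCNO the contralateral ampulla had 11110 low and 11070 among the others. FOXJ1, low in the contralateral ampulla of 11070, was at 687, 284, 229, 332 and 144 CPM in the ipsilateral ampulla, where that heifer was the second highest. The chaperone genes HSP90B1, at 10092, 10077, 18449, 2782 and 1979.8 CPM, and SDF2L1, at 987, 589, 1123, 121 and 166 CPM, had the same 2 heifers lowest. In the ipsilateral upper horn of heifers 10872, 10882, 11033 and 11070, HSP90B1 was at 964, 1811, 1279.6 and 1163 CPM and SDF2L1 at 14.1, 11.3, 26.3 and 13.5 CPM, without such a gap. That group had no library of heifer 11110. The contralateral upper horn had heifers 11070 and 11110 lowest for both chaperone genes. There HSP90B1 was at 1154, 999.6, 764, 736 and 709 CPM and SDF2L1 at 32.4, 20.3, 27.3, 16.3 and 9.89 CPM. EMX2, high in the contralateral ampulla of heifer 11070, was at 372, 341, 323, 269 and 481 CPM in the ipsilateral ampulla, where that heifer was the lowest.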
